A study of Homo sapiens with 6 samples.

Results

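The 9 genes for replication-independent histone variants, H3F3A, H3F3B, CENPA, H2AFZ, H2AFV, H2AFX, H2AFY, H2AFJ and H1FX, were followed in NGP cells treated with the kinase inhibitor OTSSP167. They were found in the deposited count table by matching its gene symbols to a list of variant histone genes, and they make up 9 of its 19863 rows. That list was chosen with earlier results of these data known. NGP is an established human neuroblastoma line. Cells were kept in medium with 20% fetal bovine serum and given OTSSP167 at 60 nM for 12 h, or an equal volume of the solvent DMSO, with 3 RNA-sequencing libraries in each group. OTSSP167 is widely known as an inhibitor of the kinase MELK, and the series title calls it a CAMKV inhibitor. Nothing in the labels ties each library to its own culture, so every p-value reflects the spread among the 6 libraries, which may be technical.

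Bulk chromatin is assembled in S phase from replication-dependent histones, whose mRNAs typically end in a stem-loop in place of a poly(A) tail. Variant histones are made from genes outside or at the edge of that system, mostly with polyadenylated mRNAs, and are placed by dedicated chaperones. H3.3 marks active genes and telomeres, CENP-A defines the centromere, H2A.Z sits at promoters, H2A.X is phosphorylated at DNA breaks, macroH2A lies in silent chromatin, and H1X is a linker histone.

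Library totals ran from 36401828 to 57460375 counts, and no pair of replicates agreed within sampling noise (chi-square per gene of 89.3 to 106). Of 14402 genes tested, 46.1% changed at an adjusted p of 0.05 in edgeR's quasi-likelihood test, and the median log2 fold change over all of them was 0.01. The summed level of 7 adrenergic neuroblastoma markers was 1421 to 1711 CPM in DMSO and 1489 to 1550.3 CPM in OTSSP167, with the tyrosine hydroxylase gene TH under 1 CPM. Within that sum GATA3 rose from 354 to 820 CPM, PHOX2A fell from 304 to 128 CPM and ISL1 went from 47.9 down to 21.4 CPM (with edgeR adjusted p = 0.000165, 0.000153 and 0.000200). HAND2 (483 and 448 CPM), CHGA (331 and 93.5 CPM) and DBH (8.89 and 0.899 CPM) did not pass, and the median log2 fold change of the 7 markers was -1.16. The 3 immune markers summed to 0.108 to 0.275 and 0.105 to 0.612 CPM in the respective groups, with CD3E at 0. The 5 endothelial and fibroblast markers summed to 83.5 to 97.4 and 34.8 to 35.6 CPM, nearly all of it from PDGFRB and COL1A1, with PECAM1 and VWF at or near 0. The 2 epithelial markers summed to 1.35 to 2.03 and 3.33 to 4.24 CPM, and the 3 Schwann markers to at most 0.423 and 0.368 CPM. The part of such markers in the results was not tested. CAMKV measured 51.0 ± 25.5 CPM in DMSO and 15.1 ± 13.8 CPM in OTSSP167 (SD, n = 3), and did not pass the test (edgeR adjusted p = 0.118). It passed without OTSSP167 replicate 2 (log2 fold change -2.84 beside -1.75, adjusted p = 0.0213) and with DESeq2 (adjusted p = 0.0365), and its alternatives spanned 0.0213 to 0.258.

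The coding sequences of the paired H3.3 and H2A.Z genes are shown because they bear on whether reads of each pair can be told apart. H3F3A (chromosome 1, 226061851 to 226072001, plus strand) and H3F3B (chromosome 17, 75776434 to 75785893, minus strand) are well known to encode the same H3.3 protein, yet their coding sequences of 411 bases differ at 88 bases, 77 of them at the third codon position. Their longest identical stretch is 14 bases, so the transcripts can be told apart over most of their coding length. The first 60 coding bases (GENCODE release 29, GRCh38) show the 13 differing bases in capitals.
H3F3A: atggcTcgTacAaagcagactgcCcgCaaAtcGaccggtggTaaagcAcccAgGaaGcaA
H3F3B: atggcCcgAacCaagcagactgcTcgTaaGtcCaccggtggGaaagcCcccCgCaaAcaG
H2AFZ (chromosome 4, 99948086 to 99950388, minus strand) and H2AFV (chromosome 7, 44826791 to 44848083, minus strand) encode the closely related proteins H2A.Z.1 and H2A.Z.2. Their 387 coding bases differ at 76 positions, with a longest identical stretch of 23 bases, and 12 of the differences, in capitals, fall in the first 60 bases.
H2AFZ: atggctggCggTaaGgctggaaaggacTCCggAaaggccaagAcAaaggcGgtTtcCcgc
H2AFV: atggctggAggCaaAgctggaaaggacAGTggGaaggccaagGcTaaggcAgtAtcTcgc
GENCODE also lists 6 numbered pseudogenes of H3F3A, 2 of H3F3B, 6 of H2AFZ and 1 of H2AFV, none of them as a row of the count table, so the values of these 4 genes are uncertain to the extent that reads were divided with such copies.

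H2AFX (chromosome 11, 119093854 to 119095467, minus strand) has a single exon and, among the 9 genes, was the one whose annotated transcript holds a match to the histone stem-loop consensus downstream of its coding sequence. The match begins 49 bases after the stop codon, with the 4 loop bases in capitals.
H2AFX stem-loop: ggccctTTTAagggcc
The same consensus was found in 31 of 66 replication-dependent histone genes and in 10 of 19577 other protein-coding genes (0.0511%). It is a search of letters in annotated transcripts, and transcripts annotated without their full end cannot match.

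Levels between genes were compared as CPM per kilobase of annotated coding-transcript exons. In DMSO, H1FX was highest at 547 ± 13.1 CPM per kilobase (SD, n = 3), followed by H2AFZ at 488 ± 10.1, H3F3A at 386 ± 7.78, H3F3B at 247 ± 1.86, H2AFY at 146 ± 5.57, H2AFX at 91.9 ± 3.01 and H2AFV at 74.8 ± 1.19. CENPA followed at 8.12 ± 3.12, and H2AFJ had no counts. No neighbours in this order overlapped between libraries. With OTSSP167 the first 4 genes kept their places, H2AFX moved up past H2AFY at 172 ± 4.33 CPM per kilobase, and H2AFY (99.9 ± 12.5) and H2AFV (90.6 ± 2.52) overlapped. The order depends on the annotated exon length, which is 4749 bases for H2AFV and 979 for H2AFZ.

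OTSSP167 shifted these genes in both directions. H2AFX, CENPA, H2AFV and H3F3B rose and H2AFY, H3F3A, H2AFZ and H1FX fell, so 8 of the 8 tested genes passed the main test. That compares with 46.1% of all genes tested and 63.9% of the 2195 genes with at least 100 CPM on average. CENPA, with group means of 11.8 and 25.2 CPM, was below that level. By direction, 4 of 8 rose and 4 of 8 fell, beside 23.8% and 22.3% of all genes. The count of 8 was not stable. Leaving out DMSO replicate 1 removed the calls of CENPA, H3F3B and H1FX together, and the replicate block removed those of H3F3B and H1FX. H2AFJ was below the low-count filter and was not tested. The 8 log2 fold changes had a median of -0.01, beside 0.01 for all genes, and 1 of 8 genes (H2AFX) passed a test against a change of 1.5-fold, beside 19.6% of all genes (10.6% higher and 9.03% lower). The libraries of the 2 groups did not overlap for any of the 8 tested genes, nor did they for 60.4% of all genes (30.8% higher and 29.6% lower). The summed level of the 9 genes was 4221, 4188 and 4173 CPM in DMSO replicates 1 to 3 and 3957, 3857 and 3916 CPM in the OTSSP167 libraries. CPM is a share of each library's reads, so less of one RNA and more of the others cannot be told apart, nor can fewer cells of a kind and less RNA per cell.

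**Figure D1:**
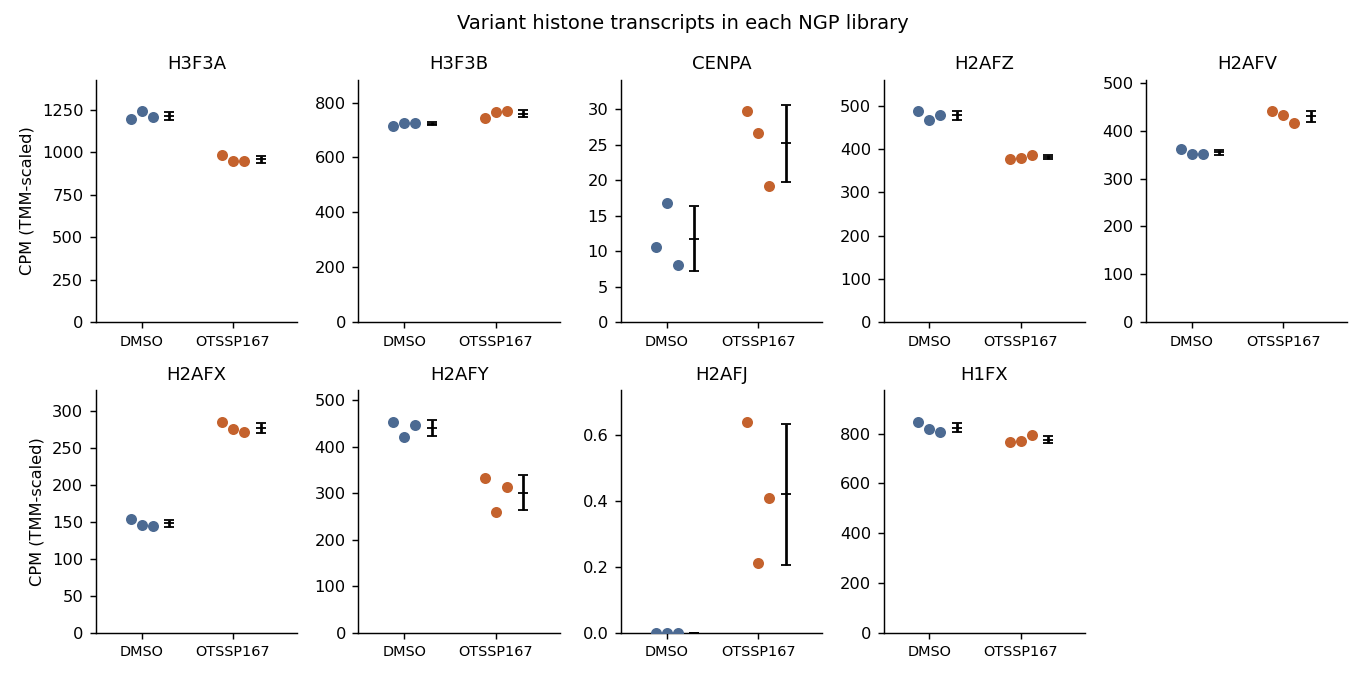
CPM scaled between libraries (y axis, from 0, own scale for each gene) of the 9 variant histone genes in DMSO (blue) and OTSSP167 (orange) libraries; each point is 1 library in order of replicate number, and the bar beside it is the mean ± SD of 3. The groups do not overlap for any gene, as was so for 60.4% of all genes tested. H2AFJ, which was not tested, had 0 counts in DMSO and at most 25 in an OTSSP167 library. H2AFX lies at 145 to 154 CPM in DMSO and 271 to 285 in OTSSP167, whereas H3F3B differs by a few percent.

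Among the H3 variants, the paired H3.3 genes moved unequally. H3F3A measured 1193, 1241 and 1208 CPM in the DMSO libraries and 983, 948 and 948 CPM in the OTSSP167 libraries. All treated libraries lay below all controls, and the log2 fold change was -0.34 (SE 0.02, edgeR adjusted p = 0.000282). H3F3B measured 716, 724 and 726 CPM in DMSO and 744, 765 and 768 CPM in OTSSP167. The groups did not overlap, but the rise was only 0.07 on the log2 scale (with an SE of 0.02 and an edgeR adjusted p = 0.0330). It no longer passed with library-size scaling (adjusted p = 0.0537) or without any one of DMSO replicate 1 (0.117), 2 (0.0963) or 3 (0.119) or OTSSP167 replicate 2 (0.0991) or 3 (0.0942), and its alternatives spanned 0.00133 to 1. H3F3B overlaps the gene UNK on the opposite strand, and the strand setting of the counting is not given in the sources used here.

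The share of H3F3A in the counts of both H3.3 genes was 62.5, 63.1 and 62.5% in DMSO and 56.9, 55.3 and 55.2% in OTSSP167. As a log2 ratio of H3F3A over H3F3B per library, which does not depend on scaling between libraries, this was 0.75 ± 0.02 in DMSO and 0.34 ± 0.06 in OTSSP167 (SD, n = 3). The difference of -0.41 had p = 0.1 in a 2-sided exact permutation test over the 6 libraries, the smallest p that 3 against 3 allows, and 0.1 after adjustment over the 3 gene pairs compared.

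CENPA, which encodes the centromeric H3 variant (chromosome 2, 26764289 to 26801067, plus strand), was the least abundant tested member. It measured 10.6, 16.8 and 7.99 CPM in the DMSO libraries and 29.7, 26.7 and 19.2 CPM in the OTSSP167 libraries. The groups lay apart, with a wide spread within each, and the log2 fold change was 1.10 (SE 0.33, edgeR adjusted p = 0.0408). CENPA did not pass without DMSO replicate 1 (0.118) or 3 (0.0890) or OTSSP167 replicate 1 (0.107) or 2 (0.0995), and its alternatives spanned 0.00361 to 0.156. The annotated CENPA locus overlaps SLC35F6 on the same strand, a gene with 1541 counts over the 6 libraries, so some reads may be shared.

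Of the 4 tested H2A genes among the 9, H2AFX had the largest log2 fold change. H2A.X is the substrate of the kinases ATM, ATR and DNA-PK at DNA breaks. H2AFX measured 154, 146 and 145 CPM in the DMSO libraries and 285, 276 and 271 CPM in the OTSSP167 libraries. The groups were far apart relative to their spread, at 1.87-fold (log2 fold change 0.90 with an SE of 0.04, edgeR adjusted p = 6.87e-05). H2AFX passed under all 15 alternatives run, with log2 fold changes of 0.87 to 1.00. Its share of the counts of the 5 H2A genes rose from 10.2 to 10.6% in the DMSO libraries to 19.6 to 20.5% in the OTSSP167 libraries.

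The paired H2A.Z genes moved in opposite directions. H2AFZ, for H2A.Z.1, measured 487, 467 and 479 CPM in DMSO and 378, 379 and 386 CPM in OTSSP167. Its log2 fold change was -0.33 (SE 0.03, edgeR adjusted p = 0.000372). H2AFV, for H2A.Z.2, measured 362, 352 and 351 CPM in DMSO and 441, 433 and 417 CPM in OTSSP167. Its log2 fold change was 0.28 (SE 0.03, edgeR adjusted p = 0.00124). Neither gene's groups overlapped, and both directions held under every alternative run, upper-quartile scaling included. H2AFZ gave 57.0 to 57.7% of the counts of the pair in DMSO and 46.2 to 48.1% in OTSSP167. The log2 ratio of H2AFZ over H2AFV went from 0.43 ± 0.02 to -0.17 ± 0.06 (SD, n = 3), so the more counted gene of the pair changed (difference -0.60, exact permutation p = 0.1, the smallest possible, and 0.1 adjusted). These counts are not scaled by exon length. Per kilobase H2AFZ stayed above H2AFV, at 488 against 74.8 CPM in DMSO and 389 against 90.6 CPM in OTSSP167.

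H2AFY (chromosome 5, 135333900 to 135399914, minus strand) encodes macroH2A1, which carries a large globular macro domain beside its histone fold. It measured 453, 421 and 447 CPM in the DMSO libraries and 333, 260 and 313 CPM in the OTSSP167 libraries. The groups did not overlap, and OTSSP167 replicate 2 was the lowest library (log2 fold change -0.55 with an SE of 0.10, edgeR adjusted p = 0.00745). The macroH2A2 gene H2AFY2, a paralog outside the 9 genes, measured 259, 272 and 259 CPM in DMSO and 72.7, 70.0 and 72.1 CPM in OTSSP167. That is 3.67-fold lower with OTSSP167 (log2 fold change -1.88 with an SE of 0.04, edgeR adjusted p = 1.26e-05), so the share of H2AFY in the counts of both macroH2A genes went from 60.8 to 63.6% in DMSO to 78.8 to 82.1% in OTSSP167. The log2 ratio of H2AFY over H2AFY2 differed by 1.32 between groups (exact permutation p = 0.1, the smallest possible, and 0.1 adjusted). H2AFY2 overlaps AIFM2 on the opposite strand.

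H2AFJ (chromosome 12, 14774383 to 14778002, plus strand), which encodes H2A.J, was at 0 counts in all 3 DMSO libraries and at 25, 12 and 15 counts in OTSSP167 replicates 1 to 3. These correspond to 0.638, 0.210 and 0.409 CPM. Against a limit of 3 counts over the DMSO group, which is 0.0207 CPM, the pooled OTSSP167 level of 0.391 CPM (exact Poisson 95% interval 0.292 to 0.513, counting error only) was at least 18.9-fold higher. Without OTSSP167 replicate 1 the pooled level was at least 13.9-fold higher, and at the lower limit of the Poisson interval at least 14.1-fold. Without the low-count filter H2AFJ passed (edgeR adjusted p = 0.0184, and 0.0184 to 0.0310 in the 5 settings that tested it). Where the filter was kept, H2AFJ got past it only through its OTSSP167 counts. Those p-values are therefore no separate evidence of a rise. Its level stayed under 1 CPM in every library.

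H1FX (chromosome 3, 129314771 to 129316277, minus strand) encodes the linker histone H1X. It measured 846, 819 and 808 CPM in DMSO and 764, 769.6 and 794 CPM in OTSSP167. The groups were separate by a narrow margin, with a log2 fold change of -0.09 (SE 0.03, edgeR adjusted p = 0.0412). That call was lost under 11 of 15 alternatives, among them those without DMSO replicate 1 (0.119) or 2 (0.104) or OTSSP167 replicate 1 (0.109) or 2 (0.106), the estimate turned to 0.01 with upper-quartile scaling, and the adjusted p ran from 0.0347 to 1.

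**Figure D2:**
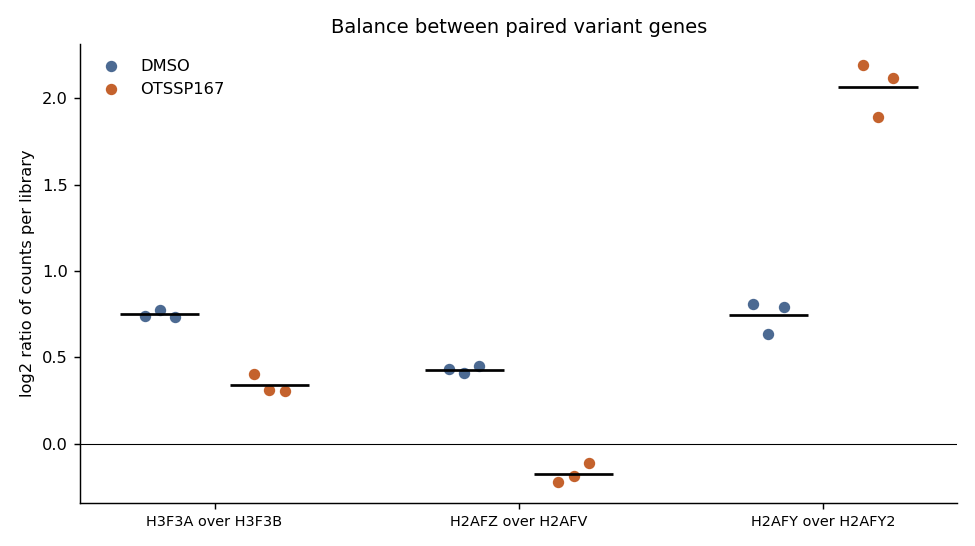
Log2 ratio of counts within each library (y axis) for 3 gene pairs, in DMSO (blue) and OTSSP167 (orange); each point is 1 library and the line is the mean of 3. In every pair the groups lie apart, and H2AFZ over H2AFV crosses 0, from 0.43 to -0.17. The counts are not scaled by exon length, and per kilobase H2AFZ stays above H2AFV in both groups.

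Promoters of 9 of the 9 genes were found in RefSeq (GRCh38.p14), and 4 are printed: those of the 2 genes with the largest tested rises, H2AFX and CENPA, and those of the H2A.Z pair that moved apart. Each runs 5′ to 3′ on the gene's strand from 250 bases before the start to 50 bases after it. Capitals mark 5 motifs searched on both strands: the CCAAT box (CCAAT, in 34.6% of all 35116 RefSeq promoter windows), the CHR element of cell cycle genes (TTTGAA, 15.2%), the E-box (CACGTG, 7.26%), the TATA box (TATAAA, 11.5%) and an E2F-type site (TTTCCCGC, 1.63%). None of these motifs contains another.
H2AFX, chr11:119095416-119095715, minus strand: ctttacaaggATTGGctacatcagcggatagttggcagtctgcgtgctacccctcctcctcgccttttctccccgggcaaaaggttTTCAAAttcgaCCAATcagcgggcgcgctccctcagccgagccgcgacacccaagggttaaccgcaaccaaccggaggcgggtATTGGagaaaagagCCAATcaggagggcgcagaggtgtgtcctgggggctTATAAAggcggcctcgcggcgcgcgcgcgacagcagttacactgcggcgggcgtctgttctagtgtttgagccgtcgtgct
CENPA, chr2:26785806-26786105, plus strand: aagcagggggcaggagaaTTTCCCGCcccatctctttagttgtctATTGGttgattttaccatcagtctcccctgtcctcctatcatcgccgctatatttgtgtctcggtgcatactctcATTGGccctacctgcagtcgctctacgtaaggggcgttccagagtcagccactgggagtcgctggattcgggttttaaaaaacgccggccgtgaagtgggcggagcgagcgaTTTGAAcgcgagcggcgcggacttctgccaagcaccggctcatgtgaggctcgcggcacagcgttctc
H2AFZ, chr4:99950226-99950525, minus strand: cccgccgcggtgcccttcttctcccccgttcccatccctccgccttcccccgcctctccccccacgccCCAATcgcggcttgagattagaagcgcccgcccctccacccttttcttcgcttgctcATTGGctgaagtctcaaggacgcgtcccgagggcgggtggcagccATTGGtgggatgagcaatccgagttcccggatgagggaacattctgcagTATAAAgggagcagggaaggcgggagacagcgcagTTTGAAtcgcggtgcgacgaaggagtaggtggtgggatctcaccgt
H2AFV, chr7:44848038-44848337, minus strand: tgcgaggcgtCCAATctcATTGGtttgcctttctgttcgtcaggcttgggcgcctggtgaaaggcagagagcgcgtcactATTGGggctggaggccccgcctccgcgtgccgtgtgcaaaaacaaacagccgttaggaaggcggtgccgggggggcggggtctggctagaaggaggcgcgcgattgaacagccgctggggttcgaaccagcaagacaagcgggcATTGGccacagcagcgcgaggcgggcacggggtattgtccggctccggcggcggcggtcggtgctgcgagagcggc
The H2AFX window holds 4 CCAAT boxes, 1 CHR element and 1 TATA box, and that of CENPA 2 CCAAT boxes, 1 CHR element and 1 E2F-type site. The H2AFZ window, of a gene that fell, holds 3 CCAAT boxes, 1 TATA box and 1 CHR element, and that of H2AFV, which rose, 4 CCAAT boxes alone. Among the 4 printed windows, those with a CHR element or a TATA box belonged to genes of both directions. Any link between motifs and direction was not tested.

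Replication-dependent histone genes, taken by their symbol prefix, were set beside the variants. Of 66 such genes 58 were tested, 31 rose and 3 fell, with a median log2 fold change of 1.18, beside 23.8% higher, 22.3% lower and a median of 0.01 over all genes. Some of these rises and falls belong to genes that got past the low-count filter only through the group where they were high. Such calls are no separate evidence of a change, and they enter the medians and the class counts below. With at least 1 CPM required in each library, 23 rose and 1 fell. The testis-type genes HIST1H1T, HIST1H2AA, HIST1H2BA and HIST3H3 carry the same prefix but were listed with the other variant genes and are not among the 66. By class, 7 of 13 H2A genes rose and 0 fell, 10 of 16 H2B genes rose and 1 fell, 8 of 13 H3 genes rose and 0 fell, 6 of 12 H4 genes rose and 1 fell, and 0 of 4 H1 genes rose and 1 fell. Their summed level was 199 to 211 CPM in DMSO and 727 to 815 CPM in OTSSP167. That of the 9 variant genes had means of 4194 and 3910 CPM. This small fall holds for the main scaling between libraries and was not recomputed with the others. Upper-quartile scaling raised the median log2 fold change of all genes from 0.01 to 0.11. A large part of the replication-dependent sum in both groups came from 1 gene, HIST3H2A, chosen after its values were seen, with means of 57.5 and 252 CPM. As a share of all H3-coding counts, H3F3A and H3F3B together made up 98.3 to 98.7% in DMSO and 92.8 to 93.7% in OTSSP167. These genes hold near-identical copies between which reads can be divided, and the shares are of counted reads in an mRNA library.

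**Figure D3:**
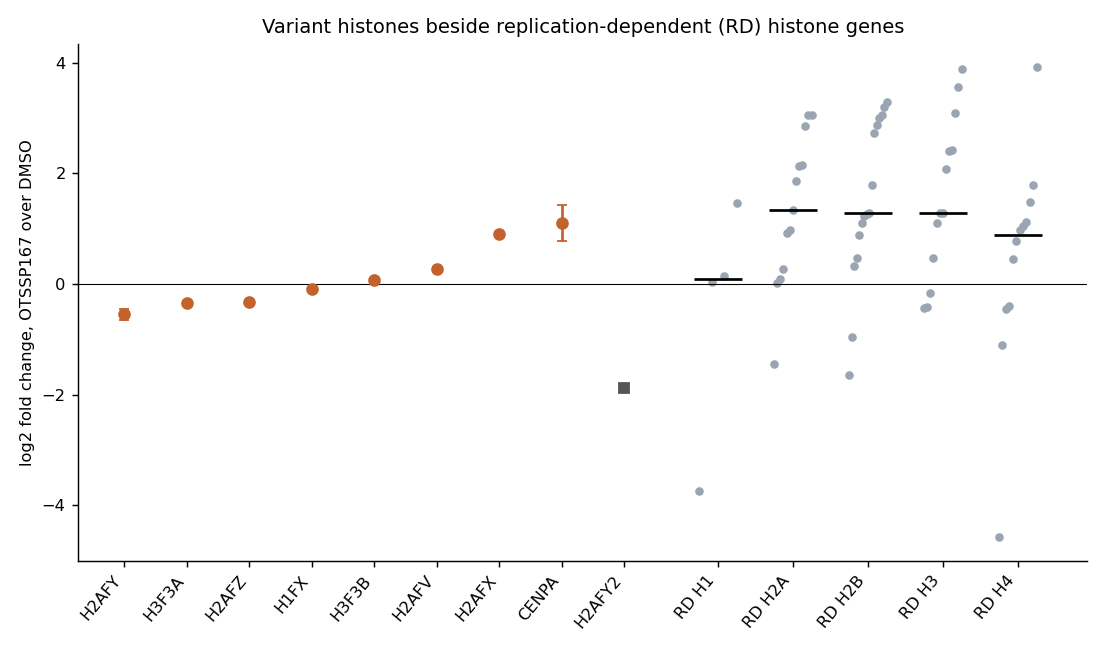
Log2 fold change, OTSSP167 over DMSO (y axis), of the 8 tested variant genes (orange, with SE), of H2AFY2 (grey square, with SE) and of tested replication-dependent (RD) histone genes by class (grey points, black line at the median). The variants lie between -0.55 and 1.10, and the class medians of the replication-dependent genes lie between 0.09 for H1 and 1.33 for H2A. Some replication-dependent genes got past the low-count filter only through the group where they were high.

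Genes that place, remove or read the variants, and the other variant histone genes, were taken from 6 lists. Of their 89 genes with a row, 79 were tested, 17 rose and 23 fell (50.6% called, beside 46.1% of all genes), with a median of 0.01. The 17 include H2AFB3 and HIST1H1T, and the 79 also H2AFB2. These genes got past the low-count filter only through their OTSSP167 libraries, so the calls of the first 2 are no separate evidence of a rise. With at least 1 CPM required in each library, which leaves these genes out, 18 rose and 20 fell. Among 8 H3.3 chaperone genes, 2 rose and 1 fell (37.5% called, beside 46.1% of all genes), with a median of 0.06. HIRA, the core of the complex that places H3.3 in active genes, measured 164, 106 and 92.8 CPM in DMSO and 20.9, 23.7 and 24.3 CPM in OTSSP167, 5.26-fold lower (log2 fold change -2.39 with an SE of 0.24, edgeR adjusted p = 0.00104). UBN2, a HIRA complex subunit, rose by 0.63 (adjusted p = 0.00167) and ASF1B, an H3-H4 chaperone of proliferating cells, by 0.57 (adjusted p = 0.00351) on the log2 scale in edgeR. ASF1A (-0.07, adjusted p = 0.320), DAXX (0.20, adjusted p = 0.598) and ATRX (0.12, adjusted p = 0.789), the last 2 a pair that places H3.3 at telomeres and repeats, did not pass. The estimates of ASF1A with upper-quartile scaling (0.03), of DAXX without OTSSP167 replicate 3 (-0.10) and of ATRX without OTSSP167 replicate 1 (-0.30) had the other sign.

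Of 12 genes for CENP-A loading, 1 rose and 5 fell, with a median of -0.43. That is 50% called, near the 46.1% of all genes (23.8% higher and 22.3% lower). HJURP, the CENP-A chaperone, measured 61.6, 72.9 and 61.8 CPM in DMSO and 44.4, 56.9 and 60.9 CPM in OTSSP167 and did not pass (log2 fold change -0.27, edgeR adjusted p = 0.180). OIP5, a subunit of the Mis18 complex that licenses loading, fell by 1.44 on the log2 scale (adjusted p = 0.000522), and RBBP7, a histone-binding escort of H3-H4, fell by 0.57 (adjusted p = 0.000112). Its relative RBBP4 rose by 0.08 (adjusted p = 0.0132), a call lost without DMSO replicate 1 (0.0510) or 3 (0.0537) and with the replicate block (0.0532), while its alternatives spanned 1.1e-05 to 1. Without that call 0 of the 12 genes rose. CENPC, which binds CENP-A nucleosomes, was chosen after its values were seen and fell from 35.1 ± 4.42 to 10.9 ± 4.86 CPM (edgeR adjusted p = 0.0134).

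Of 22 genes for H2A.Z exchange, 5 rose and 6 fell (50% called, near the 46.1% of all genes), with a median of 0.04. INO80, the ATPase of a remodeller that has been linked to H2A.Z removal, rose by 0.59 (adjusted p = 0.000573), and EPC1, a TIP60 complex subunit, by 0.75 (adjusted p = 0.00197). RUVBL1, an ATPase shared by these remodellers, fell by 0.48 (adjusted p = 0.000630) and ACTL6A, an actin-related subunit, by 0.50 (adjusted p = 0.00103), all on the log2 scale in edgeR. SRCAP, the ATPase that places H2A.Z, measured 20.1, 27.3 and 31.0 CPM in DMSO and 22.8, 36.0 and 107 CPM in OTSSP167. Its groups overlapped, 1 library held the difference, and it did not pass (adjusted p = 0.201). ANP32E, a chaperone that removes H2A.Z, measured 469, 507 and 437 CPM in DMSO and 256, 489 and 338 CPM in OTSSP167 (adjusted p = 0.244). It passed without OTSSP167 replicate 2 (-0.67, adjusted p = 0.0260), and its alternatives spanned 0.0260 to 0.926. TRRAP and EP400, large subunits of the TIP60 complex chosen after their values were seen, fell by 1.71 and 1.43 on the log2 scale (edgeR adjusted p = 0.00289 and 0.00761).

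**Figure D4:**
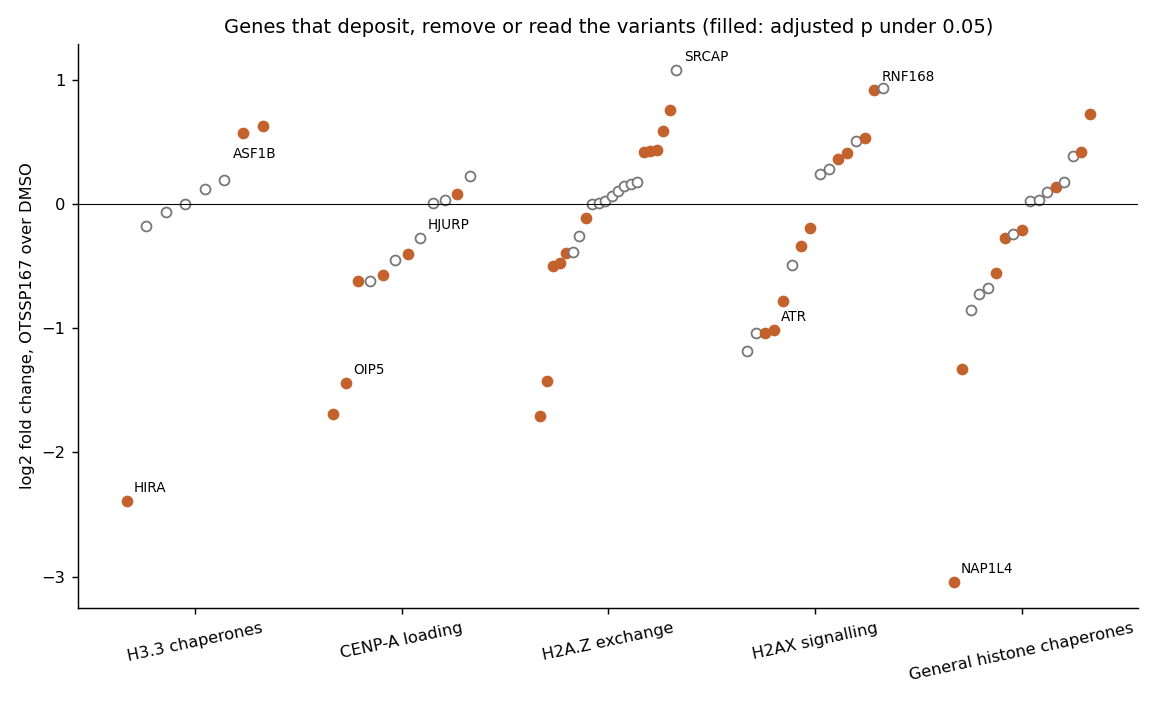
Log2 fold change, OTSSP167 over DMSO (y axis), of the tested genes in 5 lists of factors that place, remove or read histone variants (x axis), ordered by value within a list; filled points passed edgeR's test. HIRA (-2.39) and NAP1L4 (-3.04) lie lowest in their lists, and HJURP and SRCAP are open points.

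Of 16 tested genes for H2A.X signalling, 4 rose and 5 fell (56.2% called, beside 46.1% of all genes), with a median of 0.02. The count of falls was not stable. It ran from 1 to 6 over the 15 alternatives, with 2 under upper-quartile scaling and 3 with the replicate block. RNF168, a ubiquitin ligase that acts downstream of H2A.X phosphorylation, measured 71.7, 75.3 and 78.3 CPM in DMSO and 139.8, 140.0 and 146 CPM in OTSSP167 (log2 fold change 0.92 with an SE of 0.05, edgeR adjusted p = 0.000158). PPM1D, a phosphatase of phosphorylated H2A.X, rose by 0.53 (adjusted p = 0.00161). ATR, one of the kinases of H2A.X, fell by 1.01 (adjusted p = 0.00368) and RAD50, of the break-sensing MRN complex, by 0.78 (adjusted p = 0.00228), all on the log2 scale in edgeR. Of 17 general histone chaperone genes, 3 rose and 5 fell (47.1% called, near the 46.1% of all genes), with a median of -0.21. NAP1L4, an H2A-H2B chaperone, measured 128, 134 and 82.2 CPM in DMSO and 12.1, 13.6 and 15.9 CPM in OTSSP167, 8.24-fold lower (log2 fold change -3.04 with an SE of 0.23, edgeR adjusted p = 0.000406). PTMA, an abundant acidic protein that binds linker histone, fell by 0.28 (adjusted p = 0.00115). SPTY2D1, an H3-H4 chaperone, rose by 0.73 (adjusted p = 0.000318), and MCM2, a helicase subunit that also binds H3-H4, by 0.42 (adjusted p = 0.000154), all on the log2 scale in edgeR.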

How the data were processed

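RNA of NGP cells was measured by mRNA sequencing in 3 DMSO and 3 OTSSP167 libraries. The authors deposited 1 table of whole-number counts per gene symbol for the 6 libraries. FastQC 0.11.2, HISAT2 2.1.0, StringTie 1.3.5 and GRCh38.p13 are named, without roles, in the submitters' processing notes. The counter, annotation and strand setting are not given in the sources used. Column names gave each library's group and number. The 58 rows that repeat a symbol were kept as separate rows.

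Counts were fitted over the whole table with edgeR 4.0.16 in R 4.3.3 (filterByExpr, TMM, robust quasi-likelihood, treatment only) with Benjamini-Hochberg adjustment over 14402 genes at 0.05. The SE is the log2 fold change over the square root of F. CPM are TMM-scaled. The test was checked on simulated counts. Alternatives were DESeq2 1.42.0, limma-voom (limma 3.58.1), 3 other scalings, 2 other filters, a change beyond 1.5-fold, a replicate block and each library left out. Exon lengths, positions and coding sequences came from GENCODE release 29 (GRCh38). The members and gene lists were chosen with earlier results of these data known. The named genes are the 9 members, the 2 smallest p among called genes in each direction of each partner list, 8 dedicated chaperones, H2AFY2 and CAMKV. CENPC, TRRAP, EP400 and HIST3H2A were added after their values were seen. A listed gene and some markers are not reported here.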

Additional observations from a re-analysis of the deposited data

How the results depend on the processing

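The alternatives were planned, except leaving out OTSSP167 libraries for the fold of genes at 0 counts in DMSO, which was chosen after seeing the data. H2AFX kept its call in all of them. Tested against a change beyond 1.5-fold, 1 of the 8 tested variant genes was higher and 0 lower, with 1526 and 1300 of all genes and 4 and 8 of the partner genes. The 4 include H2AFB3 and HIST1H1T, which got past the low-count filter only through their OTSSP167 libraries. In that test H2AFZ (-0.33), H2AFV (0.28), H2AFY (-0.55), H3F3A (-0.34), H3F3B (0.072), H1FX (-0.087) and CENPA (1.10) did not pass. For these the adjusted p was 1, except H2AFY (0.721) and CENPA (0.156). H3F3B was lost with library size only (0.065), no low-count filter (0.058) and the replicate block (0.071, adjusted p = 0.0721). H1FX was lost with DESeq2 (-0.0625), DESeq2 size factors (-0.0624), library size only (-0.0935), at least 1 CPM in each library (-0.0256) and the replicate block (-0.0871, adjusted p = 0.119), and upper-quartile scaling gave 0.0143. That scaling raised the median of all genes from 0.01 to 0.11. Leaving out single libraries gave 0.0597 to 0.0846 for H3F3B, -0.12 to -0.0731 for H1FX, 0.87 to 1.43 for CENPA, -0.10 to 0.43 for DAXX and -0.30 to 0.29 for ATRX. Of the genes named by rule, ASF1A (0.0340, upper-quartile scaling), DAXX (-0.10, without OTSSP167 replicate 3) and ATRX (-0.30, without OTSSP167 replicate 1) changed sign, and the cause was not tested.

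The labels do not say that a replicate number marks a shared culture or day, so the numbers were not taken to pair libraries. Samples with the same replicate number deviated together by correlations of 0.01 to 0.04, beside -0.03 to 0.007 for those with different numbers. With the replicate block 4887 genes passed, against 6638. CENPA had 370 to 1521 counts in each library and an SD of 4.53 CPM around a DMSO mean of 11.8 CPM, and H2AFJ had at most 25 counts.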

Other observations

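Other variant histone genes, most of them testis-type, were also measured, at levels under 2 CPM. The table held 12 of them beside H2AFY2, and 3 were tested: H2AFB2, which did not pass (edgeR adjusted p = 0.0562), H2AFB3 and HIST1H1T. These 3 got past the low-count filter only through their OTSSP167 libraries. Their p-values are therefore no separate evidence of a rise. H2AFB3, one of 3 near-identical genes on the X chromosome for the short variant H2A.B, measured 0.156, 0.0635 and 0.0432 CPM in DMSO and 0.612, 0.543 and 0.846 CPM in OTSSP167. It rose by 2.87 on the log2 scale (with an SE of 0.58 and an edgeR adjusted p = 0.0105), and its alternatives spanned 2.45e-05 to 0.0530, the latter with the replicate block. HIST1H1T, for the testis linker histone, had 0 counts in every DMSO library and 21, 68 and 20 counts in OTSSP167 replicates 1 to 3. Against a limit of 3 counts over the DMSO group its pooled level was at least 39.6-fold higher, or at least 26.1-fold without OTSSP167 replicate 2 and at least 32.5-fold at the lower limit of the Poisson interval. It passed the test (edgeR adjusted p = 0.00796), and its alternatives spanned 2.1e-07 to 0.0862, the latter with the replicate block. H3F3C, H1FOO, H1FNT, HIST1H2BA, H2BFM and H2BFWT were at 0 counts in the 6 libraries.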
